A study of Mus musculus with 6 samples.

Results

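Osteopontin, the secreted protein made from Spp1, was followed together with the genes of its best-known receptors. The 8 genes were taken by symbol: Spp1, the hyaluronan receptor Cd44, the integrin alpha subunits Itgav, Itga4 and Itga9, and the integrin beta subunits Itgb1, Itgb3 and Itgb5. All 8 were found by symbol, each under 1 identifier, among the 32285 genes of the deposited tables. Single-nucleus RNA-sequencing (snRNA-seq) had been done on 6 brains of C57BL/6 S-56 mice, 3 LPA-injected and 3 vehicle-injected. Lysophosphatidic acid (LPA), a signaling lipid of blood plasma and serum, or its vehicle, a dilute solution of bovine serum albumin, was given at P7 as 5 µl into the right lateral ventricle. Tissue was taken at P15. In the study this injection was the model of post-hemorrhagic hydrocephalus, and no genetic change was involved. Each library was 1 perfused and frozen brain without olfactory bulbs and cerebellum, from which NeuN-negative nuclei had been sorted. The question asked of the genes here was which nuclei carried Spp1 transcripts, which carried those of its receptors, and how both differed in response to LPA.

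Osteopontin is a phosphorylated glycoprotein of bone matrix that macrophages, osteoclasts and injured tissues also secrete. Its integrin-binding part holds an arginine-glycine-aspartate motif, read by integrins of the alpha v subunit paired with a beta subunit, followed directly by a stretch that integrins alpha 4 beta 1 and alpha 9 beta 1 bind, and that thrombin opens by cutting at its end. CD44 is a second kind of receptor, and in the central nervous system it is best known on astrocytes, especially those that carry glial fibrillary acidic protein. In the developing and injured brain Spp1 is used as a marker of activated microglia.

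Spp1 lies on chromosome 5 at chr5:104435118-104441050 on the plus strand of mm10 in the GENCODE M21 annotation, with 7 exons and 882 coding bases. The coding stretch that joins this ligand to the integrins below is shown because it is the reason these receptor genes stand beside Spp1. It covers codons 134 to 156 of 294, and lies whole in exon 6 at chr5:104439451-104439519. In the first copy the capitals mark the 3 codons of the arginine-glycine-aspartate motif, codons 144 to 146, which integrins with Itgav read. In the second they mark codons 147 to 153, the adjoining 7 codons of the site for the products of Itga4 and Itga9 with Itgb1.
Spp1 motif for Itgav integrins: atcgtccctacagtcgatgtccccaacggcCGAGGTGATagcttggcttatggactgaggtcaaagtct
Spp1 motif for Itga4 and Itga9 integrins: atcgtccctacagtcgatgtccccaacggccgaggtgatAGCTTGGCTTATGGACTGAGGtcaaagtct
Of the receptor genes, Cd44 lies at chr2:102811141-102901665 on the minus strand. The other 6 lie on plus strands: Itgav at chr2:83724397-83806916, Itga4 at chr2:79255426-79333123, Itga9 at chr9:118606690-118901003, Itgb1 at chr8:128685654-128733200, Itgb3 at chr11:104608000-104670476 and Itgb5 at chr16:33829665-33949338. Intronic reads were counted and these genes run from 5.9 to 294.3 kb, so levels are compared between cell types and between groups but not between genes.

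The 6 libraries held 8639 to 12894 barcodes and 48852970 to 65688644 UMIs (unique molecular identifiers, which count captured transcripts), and 57443 nuclei were kept, 26453 LPA and 30990 vehicle, at 3732 to 4578 UMIs per nucleus in the median. Clusters were named from marker genes, so that each name below means "-like by these markers", and differences from the study may come from these rebuilt names. Of 13 cell types, 12 had enough nuclei in every library to be tested, and smooth muscle, with 46 LPA and 67 vehicle nuclei and no Spp1 UMI, was not. Own markers were highest in the type itself for every marker of 10 of the 13 types, for 6 of 8 in astrocytes, 4 of 6 in oligodendrocyte precursors and 6 of 7 in pericytes, and no marker was absent. The names were given from these same markers, so these counts describe the types and do not test their names. Clusters with mixed or low markers were left unnamed, at 8293 nuclei (14.44%). Neuronal nuclei remained after the NeuN sort, at 6061 LPA and 8320 vehicle nuclei. Pairs of libraries shared 16 to 39 barcodes among kept nuclei, at most 0.4% of the smaller library. The LPA group held 1 male library of 3 and the vehicle group 2 of 3. The library vehicle 3 stood apart in 1 respect that touches Spp1: it held 29 of 44 nuclei of a vascular sub-cluster led by genes of bone-forming cells, and is given with and without them where it matters.

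In response to LPA, Spp1 went from no UMI to 199 or more per library in microglia, the resident macrophages of the brain. Microglia of the 3 LPA libraries held 199, 352 and 299 Spp1 UMIs in 372, 528 and 409 nuclei. The 111, 315 and 95 microglial nuclei of the vehicle libraries held none. Every LPA library was therefore above every vehicle library. Per 1000000 UMIs of the microglia (CPM), the LPA level was 262, 345 and 370 (mean 326 ± 56.2 SD, n = 3). The vehicle microglia held 760038 UMIs together, so that a count of 0 allows up to 3.95 CPM (3 counts over the group; such limits cover counting error only), and Spp1 was at least 83.2-fold higher after LPA. The change passed the test across 8838 genes (edgeR's quasi-likelihood test on sums per library, Benjamini-Hochberg adjusted p = 1.65e-15). All adjusted p-values below come from this test unless named otherwise, and a gene is called where the adjusted p is under 0.05 and the log2 fold change at least 0.25 in size. Nothing beyond the labels and the study's methods says how the mice of a group differ in litter or day.

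The rise was carried by a minority of nuclei. At least 1 Spp1 UMI was found in 12.4%, 19.3% and 20.5% of LPA microglia (17.4% ± 4.41 SD, n = 3) and in 0 of 521 vehicle microglia, which allows a share of up to 0.576%. With 3 libraries against 3, the two-sided exact permutation test cannot go below p = 0.1, and it gave p = 0.1. Microglial nuclei were deeper in LPA libraries, at 1992, 1810 and 1908 UMIs in the median against 1447, 1472 and 1243. Thinned to 1000 UMIs per nucleus, which left 360, 517 and 397 LPA and 107, 299 and 89 vehicle nuclei, the mean share was 13.1% against 0. Free RNA in droplets gives stray UMIs to nuclei of every type. In LPA libraries the share was 0.75%, 1.06% and 1.07% in astrocytes, at a median of 3430, 3268 and 3376 UMIs. The microglial share was higher, at fewer UMIs per nucleus. How much of either share came from free RNA was not tested.

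**Figure D1:**
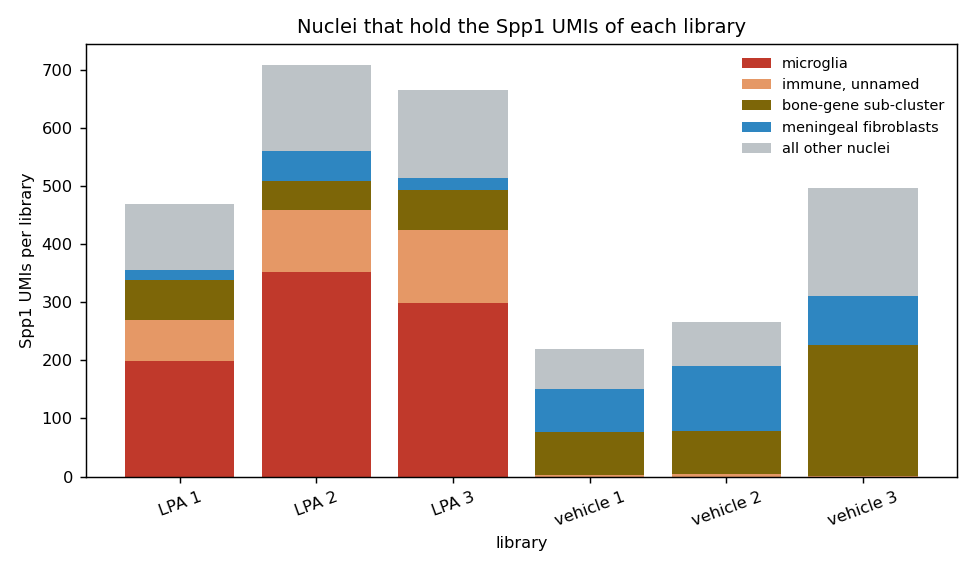
Spp1 UMIs of the kept nuclei in each of the 6 libraries (vertical axis, UMIs), stacked by the nuclei that held them. Microglia and unnamed immune nuclei fill most of the 3 LPA bars and nearly nothing of the 3 vehicle bars, in which the bone-gene sub-cluster and meningeal fibroblasts stand out. The remaining nuclei are drawn as 1 part, which in vehicle 3 includes the 94 UMIs of myelinating oligodendrocytes.

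Within LPA microglia, Spp1 was concentrated in a sub-cluster led by Gpnmb, Hpse and Atp6v0d2, genes of lysosome-rich phagocytes. The members of the osteopontin set had been kept out of the genes used for clustering, but Spp1 goes with these genes, so the values are a description and not a test. The sub-cluster held 115, 179 and 180 nuclei of the LPA libraries, 30.9%, 33.9% and 44.0% of their microglia, and 0, 0 and 1 of the vehicle libraries. It held 97.0%, 96.3% and 98.3% of the microglial Spp1 UMIs, at 724, 838 and 753 CPM. Even there the transcripts were unevenly spread. A UMI was found in 36.5%, 52.0% and 43.9% of its nuclei, and the tenth of microglia with most Spp1 held 96.0%, 81.5% and 81.3% of the UMIs, with up to 17, 26 and 18 in 1 nucleus. The other LPA microglia held 24 Spp1 UMIs in all, at 12.2, 21.1 and 11.95 CPM, against 0 in vehicle, too few to pass the filter on low counts.

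The single vehicle nucleus of that sub-cluster did not resemble the LPA nuclei around it. It came from vehicle 3, held 4929 UMIs and no Spp1 UMI, and was read after its values were seen. It held 19 UMIs of Ctsk, 16 of Atp6v0d2, 11 of Calcr, 5 of Mmp9 and 3 of Acp5, genes of bone-resorbing osteoclasts, with 6 of Csf1r but none of the microglial genes Cx3cr1 and P2ry12. It also held 7 UMIs of Itgb3 and 5 of Cd44, most of what vehicle 3 microglia held of either, and the microglial values below are given with and without it where it matters.

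Markers of other immune cells were counted beside this result. All 13 microglia markers were present, with a summed level of 6142 to 6763 CPM in LPA and 8896 to 10443 CPM in vehicle microglia. The 7 macrophage markers summed to 558 to 756 CPM against 48.2 to 97.3 CPM. Most of that was Mrc1, the mannose receptor, at 440 to 612 CPM against 48.2 to 91.2 CPM, and Ms4a7, with 259 UMIs in LPA and none in vehicle. The defining macrophage genes Lyve1, Cd163 and Pf4 had 3, 1 and 5 UMIs in LPA and none in vehicle, and Cbr2 had 9 and 1. F13a1, another gene of brain macrophages, had 42 UMIs (7.91 to 23.5 CPM) against 3 (0 to 6.08 CPM). The macrophages themselves held 1 Spp1 UMI in LPA and 4 in vehicle libraries. Genes of bone-forming cells were at 43.5 to 49.0 CPM in LPA and 30.4 to 48.2 CPM in vehicle microglia. The part of nuclei with Mrc1 or F13a1 in the Spp1 result was not tested.

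**Figure D2:**
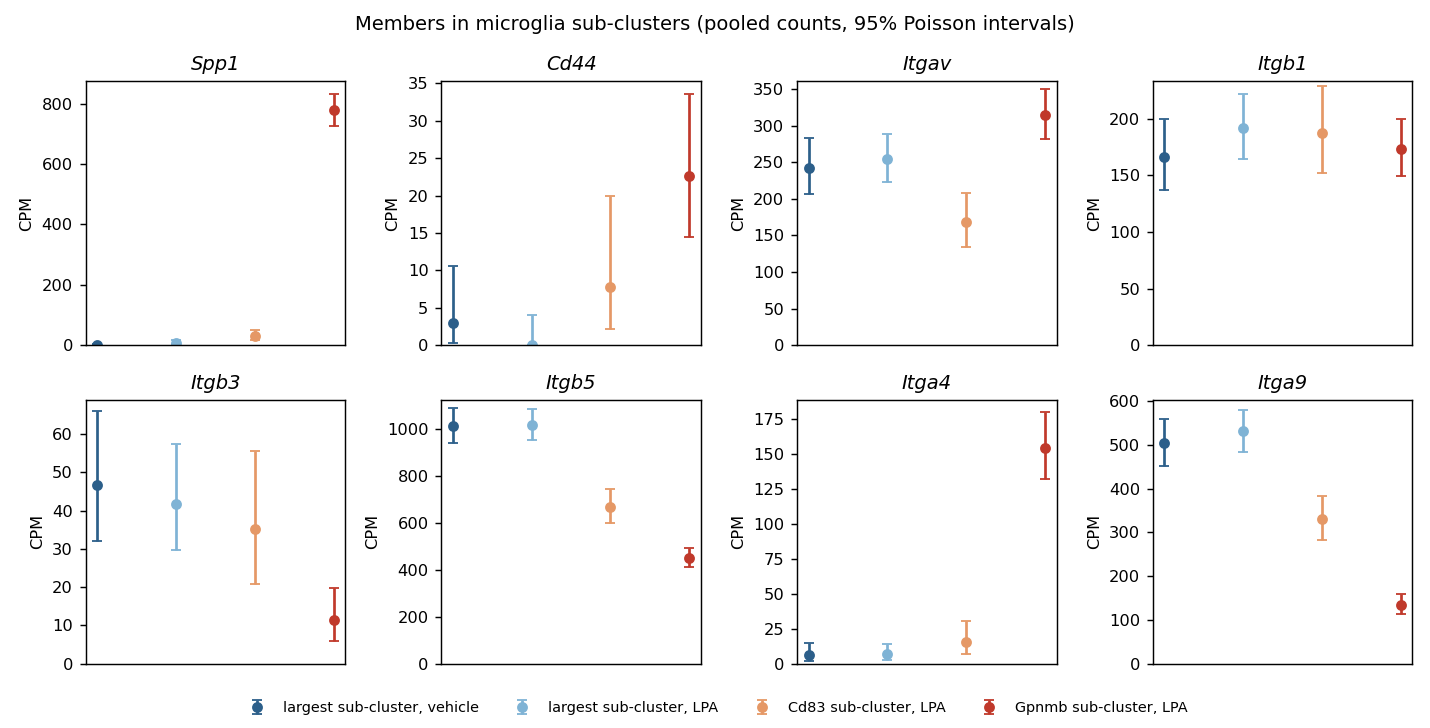
Pooled level (CPM, with 95% Poisson intervals that cover counting error only) of the 8 genes in 4 groups of microglial nuclei: the largest sub-cluster in vehicle and in LPA libraries, and the sub-clusters led by Cd83 and by Gpnmb in LPA libraries. Spp1 reaches 778 CPM and Itga4 154 CPM in the Gpnmb-led sub-cluster, where Itga9, Itgb5 and Itgb3 are lowest.

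Because microglia took up so much of it, the makeup of the Spp1 transcripts of a whole library differed between the groups. Immune nuclei held 57.8%, 64.7% and 63.8% of the Spp1 UMIs of the LPA libraries (62.1% ± 3.77 SD, n = 3). In vehicle libraries they held 2.28%, 2.63% and 0.202% (1.71% ± 1.31 SD, n = 3). The difference of 60.4 percentage points gave p = 0.1, the smallest of the two-sided exact permutation test, and the groups did not overlap. Named microglia alone held 42.4%, 49.6% and 45.0% in LPA libraries and none in vehicle libraries. Beyond the microglia, immune nuclei of sub-clusters that earned no name held a further 71, 107 and 125 Spp1 UMIs in LPA and 3, 5 and 1 in vehicle libraries. Most of these sub-clusters were left unnamed because they carried markers of another class, such as astrocytes, neurons or oligodendrocytes. Their UMIs are therefore not those of immune cells alone. The immune share rests on the mitochondrial filter, and without that filter the difference was 27.5 points.

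In vehicle libraries most Spp1 UMIs lay in meningeal fibroblasts, which build the coverings of the brain, and in the bone-gene sub-cluster, although in vehicle 3 myelinating oligodendrocytes, with 94 UMIs, exceeded the fibroblasts. Meningeal fibroblasts held 73, 113 and 85 Spp1 UMIs, which is 33.3%, 42.5% and 17.1% of each library. In LPA libraries they held 17, 52 and 19 UMIs. Relative to the UMIs of the fibroblasts, the level was 19.6, 35.8 and 20.0 CPM in LPA against 39.0, 37.5 and 31.5 CPM in vehicle libraries (25.1 ± 9.24 against 36.0 ± 3.95 CPM, SD, n = 3 each). These ranges overlap, and the log2 fold change of -0.42 ± 0.21 (SE) did not pass (adjusted p = 0.499). The smaller number of fibroblast UMIs goes with fewer nuclei, 927 in LPA and 2620 in vehicle libraries. Among fibroblast sub-clusters, Spp1 was highest in one led by the chloride channel gene Cftr, at 65.1 CPM in LPA and 114 CPM in vehicle nuclei.

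The bone-gene sub-cluster, with 6 LPA and 38 vehicle nuclei, held 69, 50 and 70 Spp1 UMIs in LPA and 74, 73 and 225 in vehicle libraries. At 9403, 24155 and 17753 CPM in LPA and 4851, 7236 and 3115 CPM in vehicle libraries, its Spp1 level was the highest of any group of nuclei. The number of such nuclei depends on the filter on mitochondrial UMIs, since most exceed 1% in every library except vehicle 3, where 18 of 47 do. Counted without that filter, their median was 2162 UMIs in vehicle 3 and 760 to 938.5 UMIs in the other libraries. With no mitochondrial filter the libraries held 23, 25 and 25 of these nuclei in LPA and 27, 24 and 47 in vehicle, and they then held 65.4%, 51.3% and 54.4% of all Spp1 UMIs in LPA and 80.4%, 75.7% and 73.5% in vehicle libraries. Osteopontin is a matrix protein of bone, and whether these nuclei came from skull carried along with the brain was not tested. Single nuclei weighed in 3 further places: 80 of the 94 Spp1 UMIs of myelinating oligodendrocytes in vehicle 3 lay in 1 nucleus, as did 14 of 16 in the endothelial cells of LPA 1 and 17 of 28 in the ependymal cells of LPA 3.

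**Figure D3:**
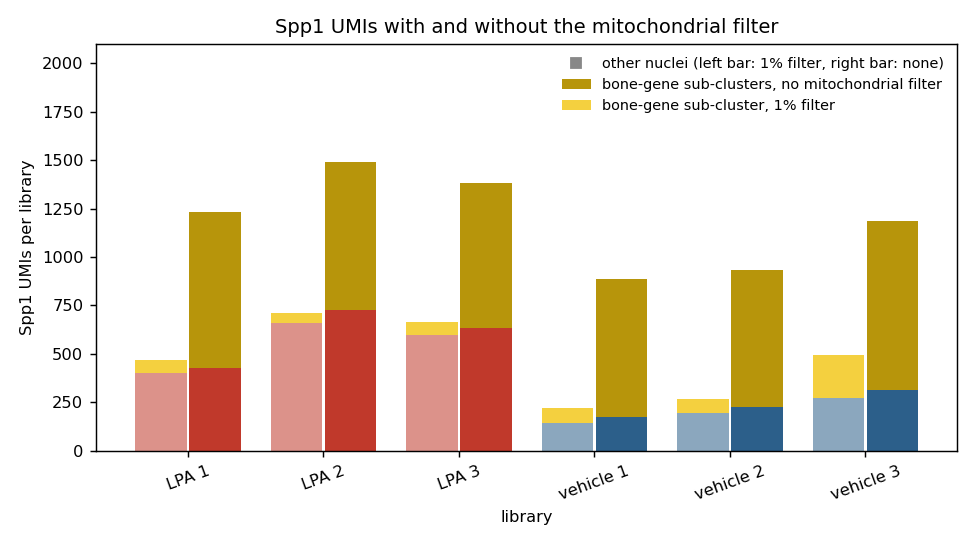
Spp1 UMIs per library (vertical axis) with the 1% mitochondrial filter (left bar of each pair) and with none (right bar), divided into the bone-gene sub-cluster and all other nuclei. Without the filter the totals rise to 1233, 1488 and 1384 UMIs in LPA and 884, 934 and 1187 in vehicle libraries, and the added UMIs lie mostly in the bone-gene sub-cluster.

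Summed over all kept nuclei with no cell type names, Spp1 was at 11.4, 16.2 and 15.1 CPM in LPA and 5.98, 5.18 and 10.6 CPM in vehicle libraries (14.2 ± 2.52 against 7.24 ± 2.91 CPM, SD, n = 3 each). The groups did not overlap, but the log2 fold change of 0.98 ± 0.25 (SE) missed the threshold (adjusted p = 0.0572). The highest vehicle value belongs to the library with 29 bone-gene nuclei. Without the bone-gene sub-cluster, a choice made after its values were seen, the levels were 9.71, 15.1 and 13.5 CPM against 3.96, 3.76 and 5.78 CPM, and the log2 fold change of 1.504 passed (adjusted p = 0.00526). Leaving out vehicle 3 had the same effect, with 1.38 (adjusted p = 0.00993). In such sums, more nuclei of a type and more RNA per nucleus cannot be told apart.

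Astrocytes, a kind of support cell of the brain, had a low Spp1 level that also passed the test. The values were 2.07, 3.07 and 3.21 CPM in LPA and 0.572, 0.65 and 1.83 CPM in vehicle libraries, from 53 and 15 UMIs in all (log2 fold change 1.43 ± 0.42 SE, adjusted p = 0.0406). No more than 2 UMIs lay in 1 nucleus. Neurons, which had no called change (log2 fold change 0.38, adjusted p = 0.87), held a UMI in 1.23%, 1.16% and 1.23% of LPA nuclei, more than the astrocytes, but at a median of 6472, 5762 and 6614 UMIs. Thinned to 1000 UMIs, the shares were 0.463%, 0.481% and 0.316% in LPA astrocytes and 0.161%, 0.202% and 0.273% in LPA neurons, and per UMI the astrocytes were also above the neurons, at 1.96 to 2.04 CPM, in each LPA library. Gpnmb, another gene of the microglial sub-cluster, moved with Spp1 in astrocytes, at 3.50 to 8.24 CPM against 0.61 to 0.979 CPM. The ratio of Spp1 to Gpnmb UMIs in LPA libraries was 0.625 in microglia, 0.655 in oligodendrocyte precursors and 0.424 in astrocytes. In the other tested types it went from 1.0 in macrophages, with 1 UMI of each gene, over 1.43 in neurons to 8.80 in meningeal fibroblasts. The part of RNA from microglia in this call was not tested. The call was lost without LPA 2, LPA 3, vehicle 1 or vehicle 2 (1.10 to 2.14 over the 6 fits, adjusted p up to 0.237) and with sex as a covariate (adjusted p = 0.0772).

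Counted over the 8 genes and 12 tested cell types, 68 of 96 pairs had enough UMIs for the test, and 11 were called, 6 higher and 5 lower after LPA, in 5 cell types. A further 8 pairs had an unadjusted p under 0.05 and were not called. Microglia had the most, with 5 of 7 tested members called beside 9.22% of all genes tested there. Of these 5, Spp1 held 0 and Itga4 5 vehicle UMIs, so the LPA libraries alone carried them past the filter on low counts. The Itgb3 call was lost without 1 vehicle nucleus. The members were also chosen with earlier results of these data known, so these counts and those below are a description. Astrocytes had 3 of 7 beside 8.06%, ependymal cells 1 of 5 beside 3.7%, committed precursors and newly formed oligodendrocytes 1 of 3 beside 2.46%, and meningeal fibroblasts 1 of 7 beside 1.28%. In the other 7 types, with 39 tested pairs, edgeR called none, 6 had an unadjusted p under 0.05 and DESeq2 called 0. Those types and their shares of all genes called are myelinating oligodendrocytes (8 members tested, 0.644%), oligodendrocyte precursors (5, 0.346%), pericytes (5, 0.264%), endothelial cells (5, 0.154%), neurons (8, 0.0949%), choroid plexus epithelium (4, 0.0398%) and macrophages (4, 0%). Macrophages, with 107 LPA and 110 vehicle nuclei, gave few UMIs, and of their 1949 tested genes edgeR called 0, 121 had an unadjusted p under 0.05 and DESeq2 called 0. On simulated counts of the macrophage depth, 68% of 200 genes changed by 1 on the log2 scale were called, so changes smaller than that may have gone unseen there. The 200 genes were drawn from those above a limit on mean UMIs per library, so the share may be lower for genes with fewer UMIs.

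**Figure D4:**
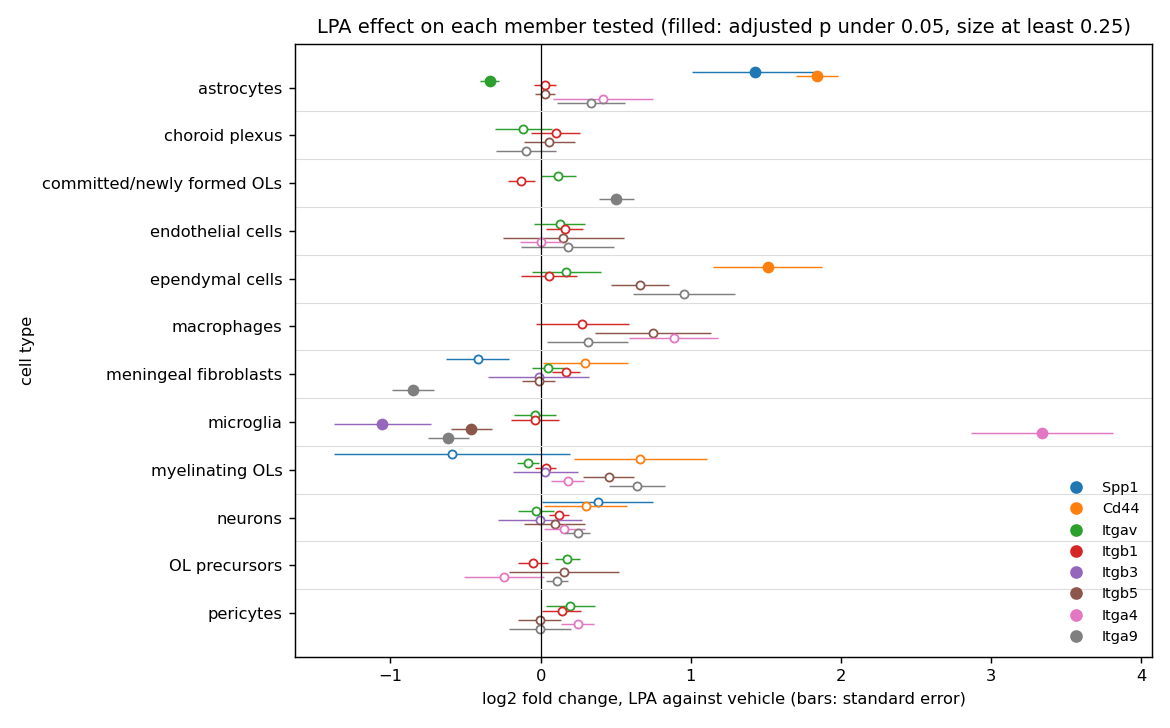
Log2 fold change of LPA against vehicle (horizontal axis, ± SE) for every tested pair of gene and cell type other than Spp1 in microglia, where vehicle libraries held no UMI. Filled points passed the test. Cd44 in astrocytes and Itga4 in microglia stand farthest above 0, and Itgb3 in microglia and Itga9 in meningeal fibroblasts farthest below among the called ones, and the first of these calls is lost without 1 vehicle nucleus.

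Cd44 rose in astrocytes and in ependymal cells. In astrocytes its level was 38.2, 31.6 and 35.5 CPM in LPA against 7.72, 10.9 and 10.2 CPM in vehicle libraries. No vehicle library came near the lowest LPA library. The means were 35.1 ± 3.33 and 9.61 ± 1.68 CPM (SD, n = 3 each), from 665 and 144 UMIs, and the log2 fold change was 1.84 ± 0.14 (SE, adjusted p = 1.68e-07). A Cd44 UMI was found in 8.36% ± 0.769 of LPA astrocytes and 2.54% ± 0.513 of vehicle astrocytes, and in 3.17% and 0.797% after thinning to 1000 UMIs. Leaving out any 1 library kept the call.

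The gap between the groups was wide in 1 of 3 astrocyte clusters. The cluster led by Myoc and Gfap, the genes of a glaucoma-linked matrix protein and of glial fibrillary acidic protein, has Cd44 among its 10 leading genes, so its level there is a description. It held 538 of the 665 astrocytic Cd44 UMIs of LPA libraries, at 114 CPM against 28.2 CPM in vehicle nuclei, and made up 25.3% of LPA and 11.9% of vehicle astrocytes. In the cluster led by Grin2c the level was 11.9 CPM in LPA and 9.80 CPM in vehicle nuclei, and in the one with Agt among its leading genes 3.48 and 5.04 CPM.

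Ependymal cells, the ciliated lining of the ventricles, also had more Cd44, at 21.6, 36.5 and 28.7 CPM in LPA against 14.1, 7.09 and 5.84 CPM in vehicle libraries. The groups did not overlap, with 92 and 18 UMIs in all, and the log2 fold change was 1.51 ± 0.36 (SE, adjusted p = 0.0229). Astrocyte markers in these nuclei summed to 1788 to 2492 CPM in LPA and 1720 to 2103 CPM in vehicle libraries, and their part in the result was not tested. The call was lost without LPA 2, LPA 3, vehicle 2 or vehicle 3 (1.28 to 2.13 over the 6 fits that leave out a library, adjusted p up to 0.0918) and with sex as a covariate (adjusted p = 0.0637). Over all kept nuclei Cd44 rose from 3.88, 3.92 and 4.30 CPM to 10.2, 9.40 and 9.42 CPM (log2 fold change 1.26 ± 0.09 SE, adjusted p = 4.77e-04), and it was the 1 of the 8 genes called there, beside 5.62% of all 20207 genes. Astrocytes held 57.3%, 54.99% and 48.0% of all Cd44 UMIs in LPA and 19.0%, 33.3% and 24.8% in vehicle libraries. In microglia Cd44 was too low for the test, at 10.6, 12.7 and 12.4 CPM in LPA and 6.08, 6.37 and 40.2 CPM in vehicle libraries, and the last value falls to 0 without the single nucleus of vehicle 3 described above.

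**Figure D5:**
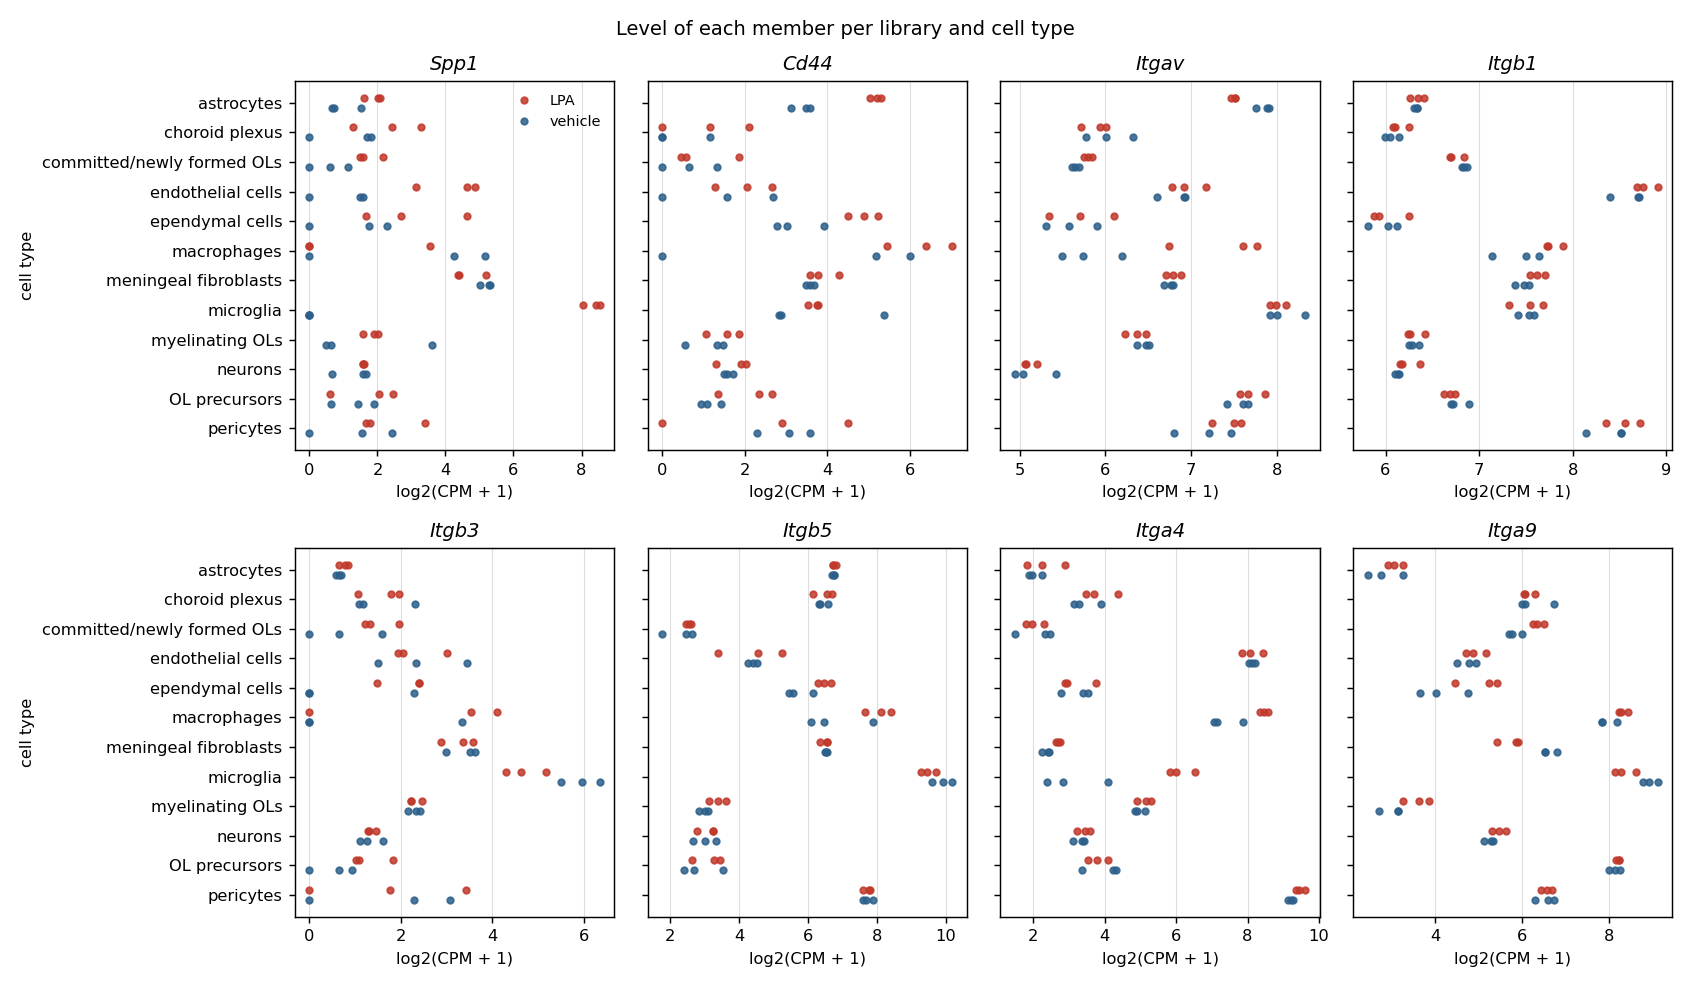
Level of each of the 8 genes (horizontal axis, log2 of CPM + 1) in every library and each of the 12 tested cell types (vertical axis), 1 panel per gene and 1 point per library, LPA and vehicle in separate colors (OLs stands for oligodendrocytes). Spp1 and Itga4 in microglia show wider gaps between the groups than Cd44 in astrocytes.

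Among the receptor genes of microglia, Itga4 moved opposite to the other integrin subunits that were called. Itga4 encodes the alpha 4 subunit, which with beta 1 also binds VCAM1 and fibronectin. Its level was 63.3, 55.8 and 91.5 CPM in LPA against 6.08, 4.24 and 16.1 CPM in vehicle microglia. All 3 LPA libraries were far above all 3 vehicle libraries, with 179 UMIs against 5, and the log2 fold change was 3.34 ± 0.48 (SE, adjusted p = 2.57e-06). It was kept in each fit that left out a library, at 2.73 to 3.83. In the Gpnmb-led sub-cluster Itga4 was at 154 CPM, against 6.60 CPM in LPA and 5.85 CPM in vehicle nuclei of the largest sub-cluster. Thus 164 of the 179 UMIs lay in the same sub-cluster as the Spp1 UMIs. Itgb1, the beta subunit it pairs with, did not pass in any of 12 types, with adjusted p-values of 0.556 and above, and in microglia its log2 fold change was -0.04 ± 0.16 (SE). Nuclei with UMIs of both Itga4 and Itgb1 were 2.75% ± 0.389 of LPA and 0.563% ± 0.530 of vehicle microglia, and 0.418% and 0% after thinning to 1000 UMIs.

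Itga9, whose product pairs with beta 1 and reads the same stretch of osteopontin, was lower in LPA microglia. The values were 389, 306 and 278 CPM against 553, 482 and 434 CPM, without overlap (325 ± 57.5 against 490 ± 60.2, SD, n = 3 each). The log2 fold change was -0.61 ± 0.14 (SE, adjusted p = 0.00167), and each fit without 1 library kept it. Within the largest sub-cluster, which held 508 LPA and 474 vehicle nuclei, Itga9 was at 530 CPM in LPA and 503 CPM in vehicle nuclei, whereas the Gpnmb-led nuclei had 135 CPM and those led by Cd83 330 CPM. In the microglia outside the Gpnmb-led sub-cluster the log2 fold change was -0.14 and did not pass (adjusted p = 0.82). The part of the sub-cluster shares in the lower sum was not tested.

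Itgb5 and Itgb3, the partners of alpha v, were also called lower in microglia, but less firmly. Itgb5 was at 831, 697 and 621 CPM in LPA against 1168, 972 and 772 CPM in vehicle microglia. These ranges overlap (log2 fold change -0.46 ± 0.14 SE, adjusted p = 0.0224), and the largest sub-cluster had 1017 and 1013 CPM while the Gpnmb-led one had 452 CPM. Itgb3 was at 23.7, 35.2 and 18.6 CPM against 60.8, 44.6 and 80.4 CPM, without overlap (log2 fold change -1.05 ± 0.32 SE, adjusted p = 0.0299). Its level was 41.8 CPM in LPA and 46.8 CPM in vehicle nuclei of the largest sub-cluster, and 11.3 CPM in the Gpnmb-led LPA nuclei. In the microglia outside the Gpnmb-led sub-cluster neither gene passed. The log2 fold change there was -0.16 for Itgb5 (adjusted p = 0.764) and -0.29 for Itgb3 (adjusted p = 0.861). The single nucleus of vehicle 3 described above held 7 of the 10 Itgb3 UMIs of that library's microglia, and without it the log2 fold change was -0.75 ± 0.34 (SE) and no longer passed (adjusted p = 0.182). Of the 6 fits without a library, only that without LPA 2 kept the Itgb3 call (-1.37 to -0.86 over the 6, adjusted p up to 0.129), and only those without LPA 1 and without vehicle 3 kept the Itgb5 call (-0.57 to -0.31, adjusted p up to 0.193). Itgav itself, the alpha subunit both pair with, was at 243, 255 and 276 CPM against 255, 242 and 321 CPM (log2 fold change -0.04 ± 0.14 SE, adjusted p = 0.933). The share of microglia with UMIs of both Itgav and Itgb5 was 22.5% ± 4.27 in LPA and 20.1% ± 3.90 in vehicle libraries (SD, n = 3 each). The difference of these shares was less than the spread between libraries, and after thinning to 1000 UMIs the order turned, with 9.80% and 11.9%.

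Outside microglia, 3 more integrin calls were made. Itgav was lower in LPA astrocytes, at 182, 182 and 176 CPM against 240, 216 and 236 CPM, without overlap (log2 fold change -0.34 ± 0.06 SE, adjusted p = 0.0018). It was at 114 CPM in LPA and 103 CPM in vehicle nuclei of the Myoc-led cluster that was more frequent after LPA, and at 215 against 252 CPM and 178 against 222 CPM in the other two. Itga9 was higher in committed precursors and newly formed oligodendrocytes, at 89.3, 74.5 and 80.3 CPM against 50.7, 63.0 and 53.4 CPM (log2 fold change 0.50 ± 0.12 SE, adjusted p = 0.0185). These groups did not overlap. Within the type, Itga9 was highest in the cluster with Gpr17, a receptor gene of committed precursors, among its leading genes. Its level there was 225 CPM in LPA and 185 CPM in vehicle nuclei. That cluster made up 31.4% of the type in LPA and 22.6% in vehicle libraries, and markers of oligodendrocyte precursors summed to 10416 to 10638 CPM against 9068 to 9704 CPM. The call was lost without LPA 1, LPA 3, vehicle 1 or vehicle 3 (0.43 to 0.61 over the 6 fits without a library, adjusted p up to 0.104).

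In meningeal fibroblasts Itga9 was lower after LPA, at 41.6, 59.2 and 56.8 CPM against 111, 91.2 and 90.8 CPM. The groups were apart, with means of 52.5 ± 9.56 and 97.7 ± 11.6 CPM (SD, n = 3 each) and a log2 fold change of -0.85 ± 0.14 (SE, adjusted p = 0.00211). Every fit without 1 library kept it. Itga9 was highest in the fibroblast sub-cluster led by Cyp26b1, which encodes a retinoic acid-degrading enzyme, at 304 CPM in LPA and 335 CPM in vehicle nuclei, followed, in the order of LPA nuclei, by those led by Slc22a2, at 180 and 155 CPM, by Dpep1, at 112 and 89.9 CPM, and by Coch, at 86.4 and 170 CPM. The Cyp26b1-led sub-cluster made up 5.93% of LPA and 15.2% of vehicle fibroblasts, the Coch-led one 8.63% and 15.7%, the Slc22a2-led one 11.4% and 8.93% and the Dpep1-led one 3.34% and 3.13%. Levels in macrophages and pericytes were higher for Itga4 in each LPA library than in each vehicle library but did not pass. In macrophages Itga4 was at 381, 351 and 323 CPM against 140, 235 and 133 CPM (log2 fold change 0.89, adjusted p = 0.485), and in pericytes, the contractile cells of capillaries, at 697, 656 and 784 CPM against 622, 600 and 557 CPM (0.25, adjusted p = 0.591).

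Whether the effect of LPA differed between cell types was tested directly, in 1 fit over the sums of all 12 types with library as a block. It differed for 6 of the 8 genes, beside 7.84% of all 15685 genes. The adjusted p was 2.79e-10 for Itga9, 2.04e-09 for Spp1, 1.37e-04 for Itga4, 0.0123 for Itgav, 0.0177 for Cd44 and 0.0201 for Itgb5 (edgeR's quasi-likelihood F test). Itgb3 and Itgb1 did not pass, at 0.457 and 0.841. For Itga9 the called effects themselves had both signs, higher in committed precursors and newly formed oligodendrocytes and lower in microglia and meningeal fibroblasts.

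Averaged over all 6 libraries, each gene had its own order of cell types. Microglia had the highest mean level of Spp1, Itgav, Itgb3, Itgb5 and Itga9, at 163 ± 182, 265, 43.9, 843 and 407 CPM. The SD of Spp1 exceeds its mean because the vehicle libraries are at 0, and the next cell type, meningeal fibroblasts, had 30.6 ± 8.70 CPM. Cd44 was highest in macrophages, at 58.8 ± 44.4 CPM, followed by astrocytes with 22.3 ± 14.2 CPM. Itga4 was highest in pericytes, at 653 CPM, ahead of endothelial cells with 279 and macrophages with 260 CPM, and Itgb1 in endothelial cells, at 415 CPM, ahead of pericytes with 356 CPM. Itga9 was lowest in astrocytes, at 6.87 CPM, where Cd44 rose. Of 11 neighbouring pairs per gene in these orders, the 6 libraries of both types did not overlap in 0 for Spp1 and Cd44, 2 for Itgav, 3 for Itgb1, 1 for Itgb3, 3 for Itgb5, 4 for Itga4 and 2 for Itga9. In these pairs the first type was also the higher one within all 6 libraries. Examples are Itgb5 in microglia, at 621 to 1168 CPM, against pericytes, at 192 to 235 CPM, and Itga4 in pericytes, at 557 to 784 CPM, against endothelial cells, at 227 to 348 CPM. The other neighbours overlapped. The two-sided exact sign-flip permutation test within libraries has a smallest p of 0.03125, too high to pass an adjustment over so many pairs unless most reach it, so nothing is read from its adjusted values.

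Other genes of the osteopontin and integrin system were read from a list of 66 genes in 6 groups, all present in the files. In microglia 4 of its 29 tested genes rose and 2 fell, beside 9.22% of all genes called there. Of the 4, Itgax and Lgals3 held no vehicle UMI, so the LPA libraries alone carried them past the filter on low counts. Fam20c held 6 vehicle UMIs. The count of rises beside that share is therefore a description. Integrin subunits of other receptors were split: Itgax, the alpha subunit of complement receptor 4, was at 47.5, 57.8 and 50.7 CPM in LPA and at 0 in every vehicle library, while Itgam, that of complement receptor 3, fell from 529, 596 and 450 to 361, 327 and 298 CPM (log2 fold change -0.73, adjusted p = 7.64e-05). Both tested genes of the group of proteases and modifiers of osteopontin rose. Ctsb, a lysosomal protease, was at 663, 757 and 956 CPM against 262, 183 and 153 CPM (log2 fold change 1.99 ± 0.17 SE, adjusted p = 2.83e-11). Fam20c, the kinase that phosphorylates osteopontin and other secreted proteins, was at 52.7, 46.0 and 64.3 CPM against 0, 10.6 and 8.04 CPM (2.73 ± 0.46 SE, adjusted p = 4.63e-05). Lgals3, a galectin that phagocytes secrete, had 17.1, 31.3 and 38.3 CPM in LPA and 0 in vehicle libraries (adjusted p = 8.06e-05). Of 12 tested adaptors and kinases that link integrins to the cytoskeleton, Lims1 alone was called (-0.40, adjusted p = 0.0299), and no fit without a library kept it. The median log2 fold change of these 12 was -0.08, beside -0.02 over all genes of microglia.

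A list of 11 microglial activation markers without Spp1 gave the state of these nuclei. Of 9 tested, 8 rose, beside 9.22% of all genes called there. The median log2 fold change was 2.89, beside -0.02 over all genes. This median is the value of Atp6v0d2, whose 16 vehicle UMIs all lay in the single vehicle 3 nucleus described above. Gpnmb, Itgax and Lgals3 held no vehicle UMI, so the LPA libraries alone carried them past the filter on low counts. Gpnmb was at 391.6, 579 and 582 CPM in LPA and at 0 in every vehicle library. Igf1, a growth factor, rose by 5.06 and Apoe, a lipid carrier, by 1.67 on the log2 scale. Since several of these genes lead the sub-cluster above, their rise is no separate evidence for the Spp1 result.

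In astrocytes 2 of 40 tested pathway genes rose and 3 fell, beside 8.06% of all genes called there. Itga1, the alpha subunit of a collagen receptor, was at 42.0 ± 1.05 CPM in LPA and 21.5 ± 3.53 CPM in vehicle libraries (SD, n = 3 each; log2 fold change 0.99, adjusted p = 1.59e-05), and Itga6, of a laminin receptor, rose by 0.26, which was lost without LPA 2, LPA 3, vehicle 2 or vehicle 3 (adjusted p up to 0.162). Mfge8, another ligand of alpha v integrins through the same motif, fell from 197 ± 27.4 to 129 ± 11.9 CPM (-0.58, adjusted p = 3.02e-04). In meningeal fibroblasts 1 of 43 rose and 4 fell, beside 1.28% of all genes called there. Of the 4 that fell, 3 are ligands of the same receptors. Vcam1, bound by alpha 4 and alpha 9 integrins, fell from 124 ± 5.90 to 59.0 ± 19.2 CPM (-1.03, adjusted p = 8.19e-04), Postn by 0.86 and Vtn by 0.71 on the log2 scale. The Postn call was lost in 4 of 6 fits without a library, without LPA 1, LPA 2, vehicle 2 or vehicle 3 (adjusted p up to 0.172), and the Vtn call without any 1 of the LPA libraries (adjusted p up to 0.0989). The median of the 9 tested ligands there was -0.53. In endothelial cells 1 of 32 was called, beside 0.154% of all genes. It was Cemip, a hyaluronan-degrading protein, at 9.35 ± 0.526 against 44.7 ± 8.90 CPM (-2.24 ± 0.35 SE, adjusted p = 0.0016). Ependymal cells had 1 of 37 called, beside 3.7% of all genes, and pericytes 2 of 29, beside 0.264%, all lower. Myelinating oligodendrocytes, neurons, oligodendrocyte precursors, committed precursors and newly formed oligodendrocytes, choroid plexus epithelium and macrophages had none by edgeR. Their shares of all genes called are given above.

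Genes whose level followed that of Spp1 over the 72 sums of library and cell type were Itgax, with a Pearson correlation of 0.695, 4933432I03Rik with 0.691, Tnfaip2 with 0.648, Gm13391 with 0.639 and Gpnmb with 0.636, out of 18372 genes. For Cd44 the closest were Nadk with 0.700, Trim30d with 0.689, Dapp1 with 0.684, Eea1 with 0.681 and Cmtm3 with 0.679. Sums of 1 library share its depth and those of 1 type share its nuclei, so these correlations describe likeness and carry no test.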

How the data were processed

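The authors deposited, for each of the 6 libraries, a filtered matrix of raw UMI counts of 32285 genes, without normalization, made with Cell Ranger 4.0.0 against mm10 with introns included in the reference. The group and replicate number of each library came from its labels, and all columns were used (0 left out). The integration by SCTransform and the transfer of labels that the authors ran were left out, and the study's proteomic, cytokine and histological data were not analysed here.

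A nucleus was kept if it had 300 or more genes, no more than 1% mitochondrial UMIs, and a UMI total within 1.5 interquartile ranges of the upper quartile of its library. Clusters came from scanpy 1.11.5 with leidenalg 0.10.2, pandas 2.3.3, scipy 1.17.1 and numpy 2.4.6 under Python 3.11.15 using 3000 variable genes, 40 principal components, 30 neighbors and Leiden resolution 1, seed 1. Markers, members, pathway, activation, sex-linked and mitochondrial genes stayed out of the variable genes. Sub-clusters of immune and of vascular nuclei used 2000 variable genes, 20 components and 20 neighbors, the vascular ones at resolution 2, set after the clusters and their Spp1 values had been seen in order to set the bone-gene nuclei apart. A name needed 3 markers found in 10% of the nuclei, no more markers of another type among the 10 leading genes, and at least 0.333 of the median UMI count of the libraries. A cluster with a second type at over 0.5 of the first score and 1.25 times the UMIs, or over 0.25 and 1.5 times, was taken as mixed. These limits were chosen with the clusters in view. Scrublet at an expected rate of 0.08 called 12.7% to 15.4% of the kept nuclei, which stayed in except in an alternative. Figures were drawn with matplotlib 3.10.9.

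UMIs were summed per library for each cell type with 10 or more nuclei in every library. The sums were fitted in edgeR 4.0.16 under R 4.3.3 (filterByExpr, TMM, quasi-likelihood test), with Benjamini-Hochberg adjustment over all genes tested. SE is the size of the log2 fold change divided by the square root of F. Shares were compared by exact permutation over 20 assignments and neighbouring levels by 64 sign patterns. Where a whole group held no UMI, the fold is a lower bound set by 3 counts over that group, and intervals at 95% cover counting error only. On simulated counts with 200 genes moved by 1 log2 unit, drawn from those above a limit on mean UMIs, the test called 71% in microglia and 92.5% in astrocytes. Pairs of libraries differed by more than sampling noise (chi-square per degree of freedom 13.3 to 44.0).

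Alternatives were DESeq2 1.42.0, no filter on low counts, the replicate number as a block, sex as a covariate, each library left out, no mitochondrial filter, Scrublet calls left out, Leiden resolution 2, other immune sets, thinning to 1000 and 500 UMIs and, added after the data were seen, the sums without the bone-gene sub-clusters and without the vehicle nucleus in the Gpnmb-led sub-cluster. The members and lists were chosen with earlier results of these data known. The text names the members, at most 3 called pathway genes per group in microglia, macrophages, astrocytes, meningeal fibroblasts and endothelial cells, and the 5 genes most like Spp1 and Cd44 among those with 10 UMIs in at least 3 sums, a limit set later. Osteoclast genes in 1 nucleus and single markers were named after their values were seen.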

Additional observations from a re-analysis of the deposited data

Results flagged for a closer look

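For 6 of the 8 genes the effect of LPA differed between cell types by edgeR's quasi-likelihood F test of all cell type by group terms. The adjusted p was 2.79e-10 for Itga9, lower in microglia and meningeal fibroblasts and higher in committed precursors and newly formed oligodendrocytes. It was 2.04e-09 for Spp1, with called rises in microglia and, at a low level, in astrocytes, and 1.37e-04 for Itga4, called in microglia alone. It was 0.0123 for Itgav, called lower in astrocytes, 0.0177 for Cd44, called higher in astrocytes and ependymal cells, and 0.0201 for Itgb5, called lower in microglia. Without LPA replicate 2, or without vehicle replicate 3, the difference no longer passed for Cd44, Itgav and Itgb5, nor without vehicle replicate 1 for Cd44 and Itgb5, nor without vehicle replicate 2 for Itga4.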

How the results depend on the processing

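The rise of Spp1 in microglia passed in every setting run, and its lower bound was 83.9-fold with no mitochondrial filter, 81.0-fold with Scrublet calls left out, 83.8-fold at Leiden resolution 2, 72.9-fold in microglia and macrophages together, 45.2-fold in all immune nuclei and 31.6-fold to 90.1-fold without 1 library, lowest without vehicle replicate 2, which held most vehicle microglia. The share of microglia with an Spp1 UMI exceeded vehicle by 8.58 points after thinning to 500 UMIs and by 15.8 to 19.9 points without 1 library. The immune share of Spp1 UMIs differed by 27.5 points with no mitochondrial filter, 47.2 at Leiden resolution 2, 64.6 with Scrublet calls left out and 59.1 to 62.5 without 1 library.

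Spp1 over all nuclei passed at a log2 fold change of 0.97 with no filter on low counts, 0.53 with no mitochondrial filter, 1.504 without the bone-gene sub-clusters and 1.41 with both of these changes to the nuclei. It ranged from 0.78 to 1.38 without 1 library and passed only without vehicle replicate 3. The replicate number as a block gave 1.02 (edgeR adjusted p = 0.0296) and cut the 11 member calls to 9, losing Cd44 in ependymal cells and Itgb3 in microglia. Same-numbered libraries share only a number: their deviations correlated at 0.28, 0.56 and -0.12 over 10626 genes, and not every library correlated best with its own number.

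Of the 11 member calls, DESeq2 made 7, without Cd44 in ependymal cells, Itgb3 and Itgb5 in microglia and Spp1 in astrocytes, and gained none. Sex as a covariate left 9, without Cd44 in ependymal cells and Spp1 in astrocytes, and among pathway genes Itga6 in astrocytes and Vtn, Parva and Tln2 in meningeal fibroblasts were lost. Leaving out 1 library gave 7 to 9 calls, newly gained pairs included, with 7 without LPA replicate 3, of which 6 were among the 11, and 7 without vehicle replicate 2. Without vehicle replicate 1 there were 9, of which 7 were among the 11. Without the vehicle nucleus of the Gpnmb-led sub-cluster 10 remained. Effects that differed between cell types numbered 3 to 6 of 8 genes without 1 library, with 3 without LPA replicate 2 and without vehicle replicate 3, and 5 under DESeq2, which lost Cd44, and with no mitochondrial filter, which lost Itgav. No value reversed among the 429 of single genes, of which 352 kept their side of the threshold. Causes were not tested.

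Counts over all genes that moved by over 1.5 times, against those of the fit reported, were as follows. DESeq2 called 740 against 1177 in astrocytes, 437 against 815 in microglia, 185 against 398 in ependymal cells, 25 against 16 in neurons, 13 against 41 in oligodendrocyte precursors, 6 against 13 in endothelial cells and 3 against 19 in pericytes. With no filter on low counts there were 665 in ependymal cells, 375 against 91 in myelinating oligodendrocytes, 318 against 155 in meningeal fibroblasts, 112 in oligodendrocyte precursors, 68 against 4 in choroid plexus epithelium, 62 in endothelial cells, 50 in neurons, 40 in pericytes and 14 against 0 in macrophages. The block gave 44 in endothelial cells, 40 in myelinating oligodendrocytes, 35 in pericytes and 13 in choroid plexus epithelium, and sex as a covariate 23 in endothelial cells, 3 in neurons, 2 in macrophages and 1 in choroid plexus epithelium. With Scrublet calls left out there were 27 in oligodendrocyte precursors, 7 in choroid plexus epithelium and 2 in macrophages, and endothelial cells had 36 with no mitochondrial filter and 8 at Leiden resolution 2, where neurons had 10. Without 1 library the counts spanned 484 to 1372 (1136 reported) over all nuclei, 448 to 803 in microglia, 793 to 1172 in astrocytes, 139 to 305 in ependymal cells, 88 to 220 against 273 in committed precursors and newly formed oligodendrocytes, 80 to 152 in meningeal fibroblasts, 9 to 220 in myelinating oligodendrocytes, 1 to 29 in neurons, 16 to 85 in oligodendrocyte precursors, 11 to 40 in pericytes, 10 to 52 in endothelial cells, 0 to 24 in choroid plexus epithelium and 0 to 1 in macrophages.

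Spp1 outside the Gpnmb-led sub-cluster, with 24 UMIs in LPA and 0 in vehicle microglia, was too low to be tested, and for macrophages no change smaller than 1 on the log2 scale was simulated.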
